A study of Saccharomyces cerevisiae with 16 samples.

Results

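The yeast proteasome was followed here through 33 genes: the 14 genes of the 20S core particle, 18 genes of the 19S regulatory particle, and RPN4, which encodes the transcription factor of these genes. The members were chosen by name, and all 33 were found among the 6227 genes of the array, each with 1 probe. All 33 probes lay well above background on all 16 arrays, so no member was lost to the filter on low signals, and 6165 genes were tested in all. The samples were total RNA of Saccharomyces cerevisiae on Agilent single-colour arrays, from 4 lines of cells taken at 0, 45, 90 and 150 min after methionine was removed, with 1 array per line and time. Lines WT, H and 170 were hog1∆ cells that carried HOG1 under control of the methionine-repressed MET3 promoter, as the wild-type gene in line WT and in altered form in lines H and 170. The line vec was JBY13 with an empty plasmid. All 4 lines went through the removal of methionine, and no culture kept in methionine was among the arrays. The labels of the altered forms disagree. Line H carries HOG1 D170A by its source name but is only called H by its treatment, and line 170 carries HOG1 D170A+F318L by source name but D170A by treatment, so neither line is given a mutation here. Hog1 is the stress-activated kinase through which yeast responds to osmotic shock, and the series was made to find genes regulated by intrinsically active Hog1.

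The proteasome is the large protease that breaks down proteins tagged with ubiquitin. Its 20S core is a barrel of outer alpha rings and inner beta rings, the beta rings holding the catalytic sites, and its 19S particle has a base of ATPases that unfolds substrates and a lid that removes ubiquitin. In yeast Rpn4 binds the promoters of most proteasome genes, and is itself a very short-lived substrate of the proteasome, so that the supply of Rpn4 follows the load on the machine.

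Values below are log2 signals relative to the 75th percentile of the array, or differences of such values, with the standard error (SE) of the limma fit. A gene was called when its Benjamini-Hochberg adjusted p over all 6165 genes was under 0.05. With a single array for each line at each time, an SE or p-value reflects the spread of a difference over the 3 later times or the 4 lines, and the spread between cultures is unknown. So few arrays limit the precision. Lines WT and H shared 1 slide and lines 170 and vec the other, so WT minus vec and H minus vec also cross slides, while H minus WT and 170 minus vec do not. Time goes with the position of an array on its slide, so time and position cannot be told apart. Signal at the 75th percentile ran from 4926 to 11306 units, and 93.4% to 98.8% of spots lay well above background. The 2 spots of a member's probe differed by a median of 0.053 log2 units. HOG1 served as the check of the labels: it stood at 1.89, 5.64, 5.49 and 5.74 over the 4 times in line WT, at 1.65, 5.55, 5.44 and 5.41 in line H and at 1.51, 6.12, 6.0 and 6.16 in line 170, against -1.67, -2.32, -2.11 and -2.15 in vec.

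RPN4 (YDL020C) fell after methionine removal in every line, and it was higher in each HOG1 line than in vec at every time. At 0, 45, 90 and 150 min it stood at 1.32, 0.40, 0.43 and 0.37 in line WT, at 1.30, 0.26, 0.56 and 0.65 in line H, at 1.09, 0.11, 0.13 and 0.12 in line 170, and at 0.35, -0.49, -0.29 and -0.39 in vec. The 3 later arrays of a line all lay below its 0 min array in 4 of 4 lines, and the vec array was the lowest of the 4 lines at each time. Averaged over the later times the change was -0.86 ± 0.067 (limma, adjusted p = 1.595e-07), a level 0.551 times that at 0 min. The fall was in place at 45 min (-0.94 ± 0.082) and was -0.81 ± 0.082 at 90 min and -0.83 ± 0.082 at 150 min. The step between 45 and 90 min (0.14 ± 0.082, adjusted p = 0.24) and that between 90 and 150 min (-0.02 ± 0.082, adjusted p = 0.91) did not pass.

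After removal RPN4 exceeded its level in vec by 0.79 ± 0.090 in line WT (limma, adjusted p = 8.2e-04), by 0.88 ± 0.090 in line H (adjusted p = 1.1e-04) and by 0.51 ± 0.090 in line 170 (adjusted p = 0.0030), which are 1.73-fold, 1.84-fold and 1.43-fold. The RPN4 levels of each HOG1 line and of vec at the later times did not overlap. The last of these compares arrays of 1 slide. Without the arrays at 90 min RPN4 in line 170 no longer passed. H minus 170 was 0.37 ± 0.090 (adjusted p = 0.027), whereas H minus WT (0.09 ± 0.090, adjusted p = 0.53) and 170 minus WT (-0.28 ± 0.090, adjusted p = 0.064) did not pass. At 0 min, before removal, RPN4 minus its vec level was 0.98 ± 0.16 in line WT (limma, adjusted p = 0.0035), 0.95 ± 0.16 in line H (adjusted p = 0.0025) and 0.74 ± 0.16 in line 170 (adjusted p = 0.0079, or 0.065 without the arrays at 90 min). Each of these sets 1 array against 1, and its SE and p come from the spread of the 12 later arrays, with none of the 0 min level itself. At 0 min HOG1 itself already exceeded its vec level, by 3.57 ± 0.16, 3.32 ± 0.16 and 3.18 ± 0.16 in lines WT, H and 170. The fall of RPN4 from 0 min in lines WT, H and 170 minus the fall in vec was -0.19 ± 0.18, -0.07 ± 0.18 and -0.23 ± 0.18, none past the threshold.

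**Figure D1:**
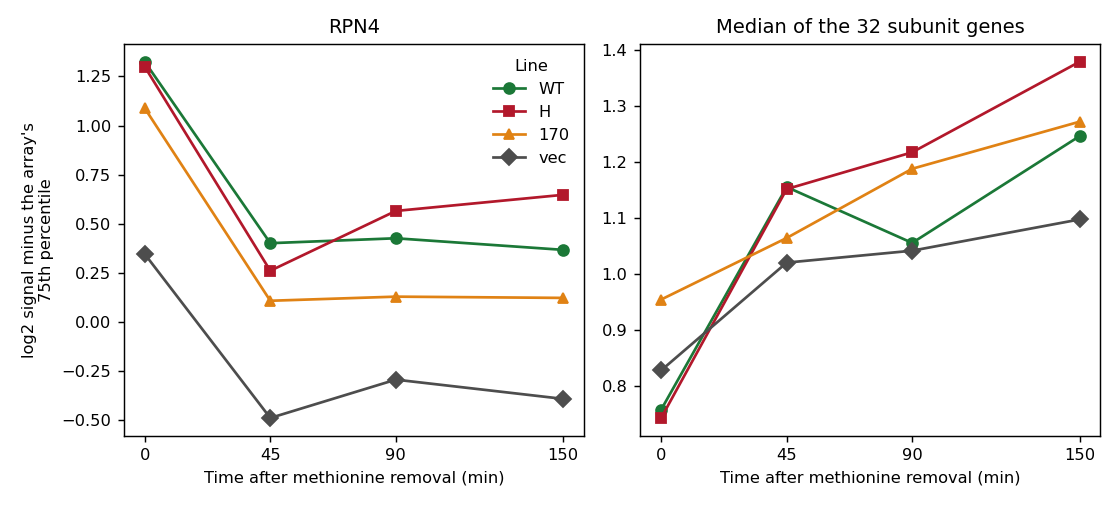
Level of RPN4 (left) and median level of the 32 subunit genes (right), as log2 signal minus the array's 75th percentile, against minutes after methionine removal in the 4 lines, with 1 array per point. RPN4 dropped between 0 and 45 min in each line and was lowest in vec at each time, while the subunit median was higher at each later time than at 0 min in all 4 lines.

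Most subunit genes that passed the test rose. Of the 32 subunit genes, 19 rose, 2 fell and 11 did not pass over the mean of the later times, so that of the 33 members 19 were called higher and 3 lower. Of all genes tested 34.8% were called higher and 44.2% lower. The median change of the subunit genes was 0.26, against -0.11 for all 6165 genes. Changes were small: the subunit that rose most, PRE7, reached 1.66 times its level at 0 min. The subunit median at 0, 45, 90 and 150 min was 0.76, 1.16, 1.06 and 1.25 in line WT, 0.74, 1.15, 1.22 and 1.38 in line H, 0.96, 1.06, 1.19 and 1.27 in line 170 and 0.83, 1.02, 1.04 and 1.1 in vec. The size of the rise, and whether more members than genes in general were called higher, depends on how arrays are scaled. With median scaling the members split into 26 higher and 2 lower (39.5% and 39.4% of all genes), and the subunit median was 0.36. With quantile normalization they split into 12 higher and 9 lower (38.5% and 39.9% of all genes), with a subunit median of 0.07. There the share of members called higher did not exceed that of all genes. Median scaling moved the median of all genes to -0.0047 and quantile normalization to -0.02. On the slide of 170 and vec alone 8 members were called higher and 2 lower, and the subunit median was 0.18. Of all genes 23.8% were called higher and 30.2% lower there, so the share of members called higher was close to that of all genes.

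Among the alpha subunits, which form the outer rings and the gate of the core, 6 of 7 rose, with a median of 0.49. PRE9, the alpha subunit that cells can live without, was the one that rose most. It stood at 1.68, 2.63, 2.28 and 2.51 over the 4 times in line WT, at 1.67, 2.56, 2.41 and 2.64 in line H, at 1.83, 2.53, 2.41 and 2.52 in line 170 and at 1.99, 2.55, 2.35 and 2.58 in vec. All 12 later arrays lay above all 4 arrays at 0 min. PRE9 changed by 0.70 ± 0.065 (limma, adjusted p = 7.1e-07), PRE6 by 0.66 ± 0.10 (adjusted p = 5.9e-05) and PUP2 by 0.65 ± 0.090 (adjusted p = 2.8e-05). PRE8 (0.49 ± 0.064), PRE5 (0.34 ± 0.059) and PRE10 (0.28 ± 0.072) rose less, and PRE5 and PRE10 no longer passed in 2 of 13 alternatives each. The levels at 0 min and later did not overlap for PRE6, PUP2, PRE8 and PRE5 either. SCL1 was the exception, at 1.84, 1.88, 1.66 and 1.84 in line WT, 1.59, 1.80, 1.83 and 1.98 in line H, 1.93, 1.81, 1.72 and 1.92 in line 170 and 1.67, 1.79, 1.72 and 1.92 in vec. Its levels at 0 min and later overlapped, and its change was 0.06 ± 0.068 (adjusted p = 0.40).

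The beta subunits split. PRE7, PUP1 and PRE4 rose, and the other 4 did not pass, with a median of 0.13 over the 7. PRE7, a beta subunit without a catalytic site, stood at -0.63, 0.02, 0.13 and 0.35 in line WT, at -0.70, 0.02, 0.42 and 0.68 in line H, at -0.59, -0.22, 0.30 and 0.30 in line 170 and at -0.32, -0.07, 0.04 and 0.12 in vec. All later arrays lay above all arrays at 0 min, as they did for PUP1 and PRE4. PRE7 changed by 0.74 ± 0.10 (limma, adjusted p = 2.8e-05), PUP1 by 0.68 ± 0.075 (adjusted p = 3.7e-06) and PRE4 by 0.52 ± 0.088 (adjusted p = 1.6e-04). PUP1 encodes the subunit with trypsin-like activity. The genes of the other catalytic subunits did not pass: PRE2, of the chymotrypsin-like site, changed by 0.12 ± 0.071 (adjusted p = 0.14) and PRE3, of the caspase-like site, by -0.15 ± 0.069 (adjusted p = 0.063). PRE3 stood at 0.94, 0.77, 0.54 and 0.86 in line WT, at 0.76, 0.74, 0.81 and 0.99 in line H, at 1.26, 0.89, 0.96 and 1.18 in line 170 and at 1.25, 1.05, 0.89 and 1.14 in vec. It was lower than at 0 min on every later array of lines WT, 170 and vec, and on 1 later array of line H. PUP3 (0.05 ± 0.068), with the smallest change of the beta genes, had later levels both above and below those at 0 min, and PRE1 changed by 0.13 ± 0.096.

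In the base of the 19S particle 6 of 10 genes rose, 1 fell and 3 did not pass, with a median of 0.26. RPN1, a scaffold of the base that binds ubiquitin shuttle proteins, stood at 0.19, 1.15, 0.96 and 1.12 in line WT, at 0.44, 1.18, 1.20 and 1.30 in line H, at 0.38, 0.85, 0.93 and 0.96 in line 170 and at 0.40, 0.86, 0.93 and 1.04 in vec. All later arrays lay above all arrays at 0 min, and the change was 0.69 ± 0.070 (limma, adjusted p = 1.6e-06). The other scaffold gene, RPN2, rose by 0.26 ± 0.064 (adjusted p = 0.0028), but was at -0.10 with quantile normalization. Of the ATPase genes RPT6 (0.43 ± 0.075), RPT5 (0.35 ± 0.070), RPT1 (0.32 ± 0.064) and RPT4 (0.27 ± 0.075) rose, and RPT2 (0.12 ± 0.072) and RPT3 (0.00 ± 0.078) did not pass. RPT3 stood at 0.36, 0.25, 0.15 and 0.46 in line WT, at 0.13, 0.17, 0.37 and 0.62 in line H, at 0.45, 0.15, 0.46 and 0.43 in line 170 and at 0.36, 0.25, 0.30 and 0.35 in vec. Its levels at 0 min and later overlapped, and the later means lay below 0 min in 3 of 4 lines, with line H the other way. Of the ubiquitin receptor genes, RPN10 changed by 0.06 ± 0.058 and did not pass, and RPN13 fell. RPN13 stood at 0.54, 0.17, 0.13 and 0.24 in line WT, at 0.42, 0.18, 0.20 and 0.21 in line H, at 0.85, 0.20, 0.48 and 0.39 in line 170 and at 0.46, 0.15, 0.10 and 0.21 in vec. All 3 later arrays of a line lay below its 0 min array in 4 of 4 lines, and the change was -0.34 ± 0.063 (adjusted p = 2.7e-04).

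In the lid 4 of 8 genes rose, 1 fell and 3 did not pass, with a median of 0.17. RPN7 rose most among them. It stood at -0.39, 0.14, 0.03 and 0.34 in line WT, at -0.46, 0.12, 0.28 and 0.49 in line H, at -0.24, 0.13, 0.30 and 0.54 in line 170 and at -0.10, 0.23, 0.18 and 0.26 in vec. All later arrays lay above all arrays at 0 min, and the change was 0.55 ± 0.075 (limma, adjusted p = 2.6e-05). RPN8 (0.26 ± 0.065), the partner of the deubiquitinase Rpn11, RPN9 (0.24 ± 0.075) and RPN12 (0.20 ± 0.070) rose, although RPN9 no longer passed in 3 of 13 alternatives and RPN12 in 4. RPN11, the deubiquitinase gene, stood at 0.60, 0.62, 0.56 and 0.74 in line WT, at 0.57, 0.56, 0.69 and 0.96 in line H, at 0.90, 0.62, 0.86 and 0.86 in line 170 and at 0.64, 0.53, 0.72 and 0.73 in vec. Its levels at 0 min and later overlapped, and its change was 0.03 ± 0.066 (adjusted p = 0.71). RPN5 fell by 0.26 on the log2 scale (SE 0.067, adjusted p = 0.0035), with the later mean below 0 min in 4 of 4 lines, and no longer passed in 4 of 13 alternatives. RPN3 (0.13 ± 0.058) and RPN6 (0.05 ± 0.065) did not pass.

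**Figure D2:**
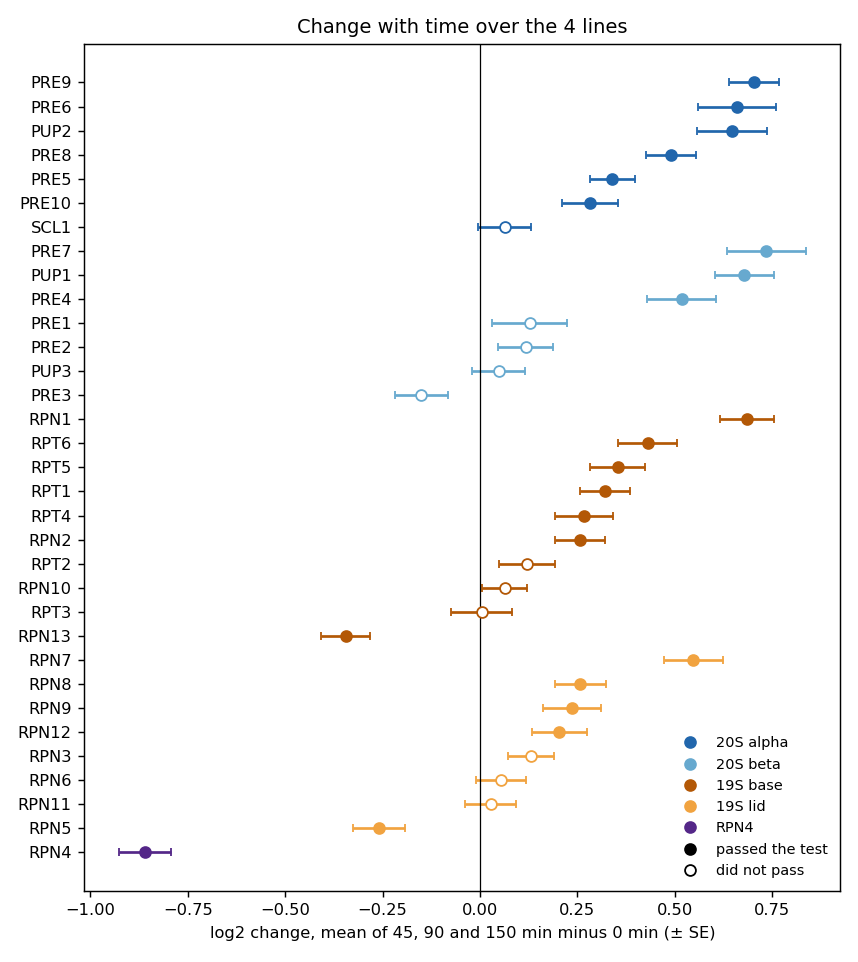
Mean log2 change of each of the 33 genes at 45, 90 and 150 min relative to 0 min over the 4 lines, with SE bars of the limma fit, coloured by place in the proteasome, filled where the adjusted p was under 0.05. The changes run from -0.86 for RPN4 to 0.74 for PRE7, and RPN13 and RPN5 are the subunit genes called lower.

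Taken time by time, 16 of the 33 members were higher and 3 lower at 45 min (31.8% and 44.5% of all genes), 15 were higher and 4 lower at 90 min (33.7% and 41.1%), and 22 were higher and 2 lower at 150 min (33.6% and 40%). With median scaling these splits were 21 and 2, 20 and 3, and 29 and 2. Of all genes 37.2% and 37.8%, 36.8% and 37.4%, and 37.2% and 35.8% were called with that scaling. With quantile normalization the splits were 11 and 11, 12 and 9, and 15 and 4. Of all genes 35.4% and 38.2%, 36.9% and 37.4%, and 37.2% and 35.9% were called with it. PRE3 was among the lower genes at 90 min only (-0.25 ± 0.084, adjusted p = 0.017). PRE2 (0.34 ± 0.086), RPT2 (0.28 ± 0.088), RPN3 (0.32 ± 0.071), RPN9 (0.35 ± 0.091) and RPN12 (0.34 ± 0.086) were called higher at 150 min and at neither of the earlier times. Between 45 and 90 min no member was called in either direction (limma), while 13.9% of all genes were called higher and 10.6% lower. At an unadjusted p under 0.05 there were 4 members, and 2379 of all 6165 genes. Between 90 and 150 min all 32 subunit genes lay above 0, where 2867 of all 6165 genes did. The subunit median was 0.16, against -0.02 for all genes. No member was called, however (limma), where 1.57% of all genes were called higher and 2.19% lower. Before adjustment 9 members, and 1371 of all 6165 genes, had a p under 0.05.

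The subunit median rose above its 0 min level in each line. The median later change of the 32 subunit genes was 0.25 in line WT, 0.44 in line H, 0.12 in line 170 and 0.17 in vec, where the medians of all genes were -0.13, -0.07, -0.08 and -0.12. The mean of the later times lay above 0 min for 26 subunit genes in line WT, 30 in line H, 21 in line 170 and 25 in vec. The share of all genes above 0 min was not computed by line, though their median change lay below 0 in each. Of the 33 members 30 had their highest change in line H, the exceptions being RPN1, highest in line WT, and RPN8 and RPN4, highest in vec. The share of all genes with their highest change in line H was not computed. All members share the 1 array of line H at 0 min. The median at 150 min relative to 0 min was 0.37 in line WT, 0.57 in line H, 0.24 in line 170 and 0.26 in vec. By place in the particle, the alpha genes changed by a median of 0.55 in line WT, 0.66 in line H, 0.36 in line 170 and 0.24 in vec, and the beta genes by 0.09, 0.54, 0.01 and 0.10 in the same order. The base genes changed by 0.31, 0.37, 0.09 and 0.18 and the lid genes by 0.09, 0.27, 0.03 and 0.11.

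**Figure D3:**
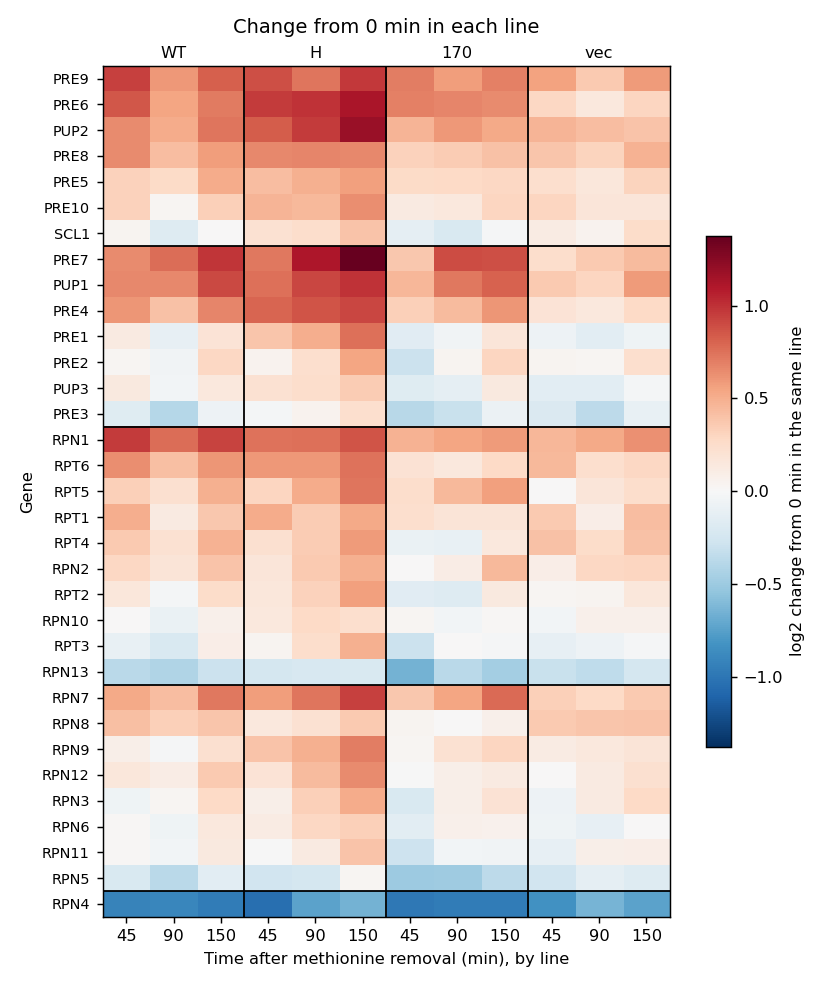
Log2 change from 0 min of each of the 33 genes at 45, 90 and 150 min in lines WT, H, 170 and vec, red for higher and blue for lower, with genes grouped from the top as alpha, beta, base and lid subunits and RPN4. RPN4, RPN13 and, in most columns, RPN5 and PRE3 are blue, and the reds of PRE6, PUP2, PRE7, PUP1 and PRE4 are deepest in line H.

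The next comparisons ask how the same genes differed between lines once HOG1 was induced, over 45, 90 and 150 min. In line H 17 of 33 members and 3479 of all 6165 genes differed from vec at an unadjusted p under 0.05 (limma). After adjustment 16 members were higher and none was lower, where 25.2% of all genes were higher and 24.6% lower. These were RPN4 and 15 subunit genes: 2 of 7 alpha, 2 of 7 beta, 7 of 10 base and 4 of 8 lid genes. The median over the subunit genes was 0.16, against -0.01 for all genes. RPT2 was 0.43 ± 0.084 higher (adjusted p = 0.0031), with 0.58, 0.74 and 0.99 in line H at the later times against 0.31, 0.31 and 0.43 in vec. RPN12 was 0.41 ± 0.083 higher (adjusted p = 0.0034), with 1.25, 1.49 and 1.70 in line H against 0.95, 1.07 and 1.17 in vec. For both the later levels of the lines did not overlap. RPT5 (0.38 ± 0.084), RPN2 (0.38 ± 0.091), RPT6 (0.36 ± 0.079), PRE4 (0.34 ± 0.080), PRE7 (0.34 ± 0.10) and PUP2 (0.33 ± 0.097) followed, and PRE3 was -0.18 ± 0.081 (adjusted p = 0.096). The count changed when single times were left out: without 90 min 1 member was called higher and without 150 min 2, while the subunit medians were 0.15 and 0.13. With lines H and vec fitted alone 4 were called.

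In line WT 2 members, RPN4 and RPN8 (0.22 ± 0.072, adjusted p = 0.049), were higher than in vec, and PRE3 was lower (-0.30 ± 0.081, adjusted p = 0.024), where 16.9% of all genes were higher and 12.8% lower (limma). PRE3 was lower by 0.27, 0.35 and 0.28 at the 3 later times, and its levels in WT and vec did not overlap. RPN8 no longer passed in 7 of 11 alternatives, and PRE3 in 3. The subunit median was 0.08, against 0.03 for all genes. In line 170 only RPN4 of the 33 was called higher than vec and none lower (limma). Of all genes 16% were higher and 16.4% lower. The unadjusted p was under 0.05 for 6 members and for 2623 of all 6165 genes. The subunit median was 0.09, against -0.03 for all genes. The subunit gene farthest from that median was PUP2, at 1.29, 1.42 and 1.35 in line 170 against 1.13, 1.09 and 1.06 in vec, a difference of 0.26 ± 0.097 (adjusted p = 0.070) with no overlap. With normexp background correction 4 members were called higher in line 170, where 16.1% of all genes were. WT, H and 170 minus vec all share the vec arrays.

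**Figure D4:**
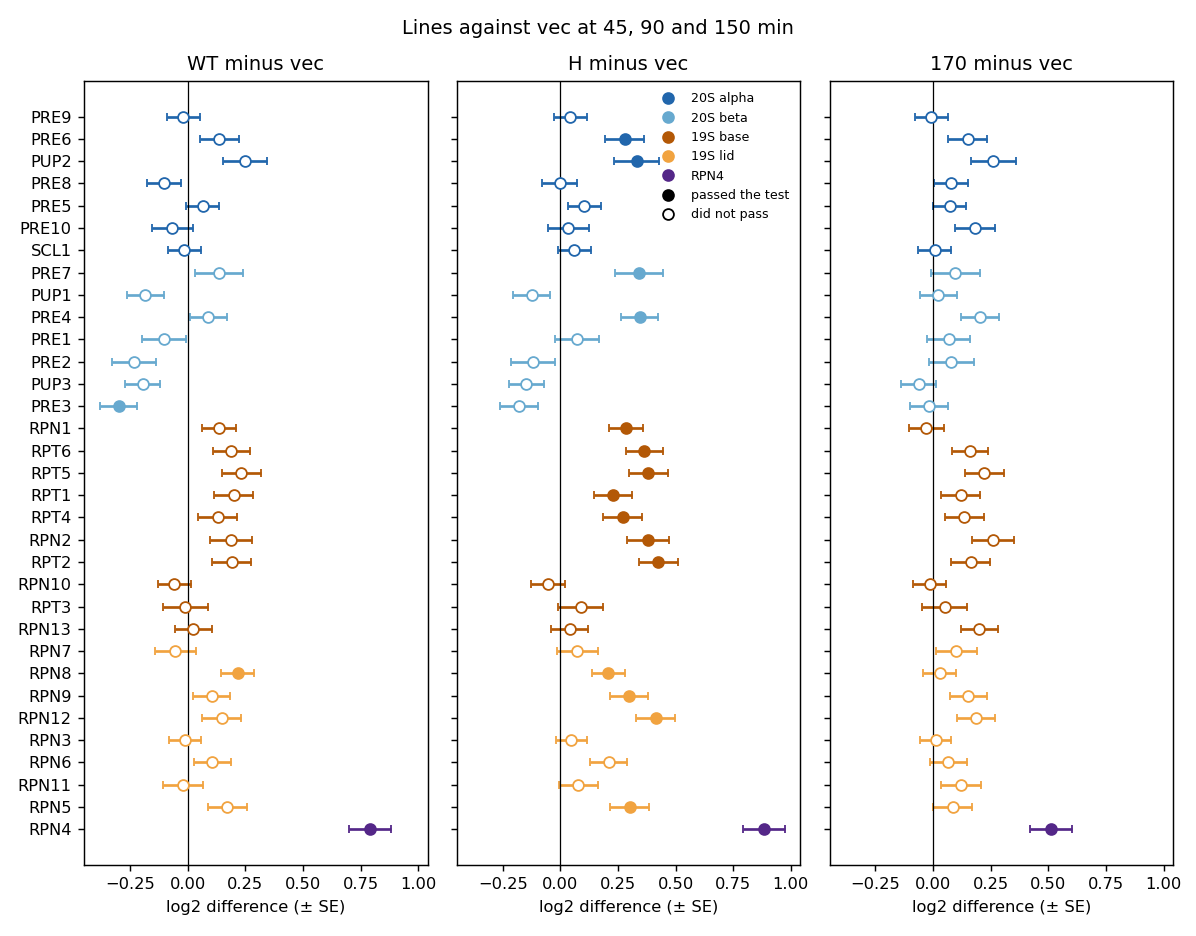
Log2 difference of each of the 33 genes between a HOG1 line and vec over 45, 90 and 150 min, with SE bars, for line WT (left), line H (middle) and line 170 (right), filled where the adjusted p was under 0.05. RPN4 is the point farthest to the right in each panel, at 0.79, 0.88 and 0.51, and 15 subunit genes are filled in line H against 2 in line WT and none in line 170.

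That more members passed in line H than in line WT is not a test of the difference between them. Set against line WT on the same slide, no member was called higher or lower in line H (limma). Of all genes 4.56% were higher and 1.67% lower. Without adjustment 4 members, and 1719 of all 6165 genes, had a p under 0.05. Of the subunit genes 31 of 32 lay above 0, where 2770 of all 6165 genes did. The subunit median was 0.11, against -0.03 for all genes. RPN12 lay farthest above that median, at 1.25, 1.49 and 1.70 in line H against 1.16, 1.11 and 1.36 in line WT, a difference of 0.27 ± 0.083 (adjusted p = 0.088). Without 45 min 2 members were called higher in line H, where 9% of all genes were. Line 170 minus WT gave 1 member higher, PRE3 (0.28 ± 0.081, adjusted p = 0.044), and none lower, where 6.88% of all genes were higher and 10.9% lower. PRE3 had 0.89, 0.96 and 1.18 in line 170 against 0.77, 0.54 and 0.86 in line WT, with no overlap. Line H minus 170 gave RPN4 and RPN1 (0.31 ± 0.075, adjusted p = 0.025) higher and none lower, where 9.75% of all genes were higher and 6.68% lower. RPN1 had 1.18, 1.20 and 1.30 in line H against 0.85, 0.93 and 0.96 in line 170, with no overlap. Without 90 or without 150 min none of these members was called in either comparison. Of all genes 0% and 0.227% were then higher in 170 minus WT, and 0.0162% and 0.0324% in H minus 170. PRE2 lay farthest from the subunit median in both, at 1.63, 1.96 and 2.22 in line 170, 1.51, 1.70 and 2.01 in line H and 1.57, 1.49 and 1.82 in line WT.

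Before removal each line had a single array, which the fit follows exactly, so the SE and p of a 0 min difference, or of a change from 0 min between lines, come from the 12 later arrays and hold no spread of the 0 min level. At 0 min 1 member (RPN4) was higher in line H than in vec and 5 core genes were lower, where 14.5% of all genes were higher and 17.8% lower (limma). The 5 were PUP1 (-0.60 ± 0.14), PRE1 (-0.56 ± 0.16), PUP3 (-0.52 ± 0.13), PRE6 (-0.51 ± 0.15) and PRE3 (-0.48 ± 0.14), with adjusted p of 0.011 to 0.029. All 14 core genes lay below vec in line H at 0 min, with a median of -0.32, while 10 of 18 genes of the 19S particle lay above. Of all 6165 genes 3115 lay above vec in that comparison. Line WT, on the slide of H, had 2 of 14 core genes above vec at 0 min, with a median of -0.26, where 3248 of all 6165 genes lay above. Line 170, on the slide of vec, had 7 of 14 above, with a median of 0.0044, where 2837 of all genes did. In H minus WT at 0 min the core median was -0.12, with 0 of 14 above 0. The part of the slide in these differences was not tested. In line WT RPN4 was higher than in vec and PUP1 lower (-0.52 ± 0.14, adjusted p = 0.027), where 11.4% of all genes were higher and 13% lower. In line 170 RPN4 and RPT4 (0.50 ± 0.15, adjusted p = 0.030) were higher and none lower, where 12.2% of all genes were higher and 18.5% lower. Without the arrays at 90 min no subunit gene was called at 0 min in any of these 3 comparisons.

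The change from 0 min was then compared between lines. It was greater in line H than in vec for 4 members and smaller for none, where 12% of all genes were called higher and 6.7% lower (limma). The 4 are 12.1% of the members, close to the share of all genes, and they are genes of the core. The differences in change were 0.79 ± 0.17 for PRE6 (adjusted p = 0.016), 0.72 ± 0.21 for PRE7 (adjusted p = 0.043), 0.66 ± 0.16 for PRE4 (adjusted p = 0.025) and 0.63 ± 0.19 for PRE1 (adjusted p = 0.048). PRE6 stood at 1.03, 2.0, 2.02 and 2.16 over the 4 times in line H, against 1.54, 1.82, 1.68 and 1.83 in vec. PRE4 stood at 0.81, 1.61, 1.68 and 1.73 in line H, against 1.13, 1.31, 1.27 and 1.40 in vec. For both genes line H was below vec at 0 min and above it at all 3 later times. PRE6 did the same in line WT (-0.33 at 0 min, then 0.25, 0.07 and 0.09 relative to vec) and in line 170 (-0.28, then 0.13, 0.245 and 0.08). PRE4 did so in line 170 (-0.05, then 0.09, 0.24 and 0.28) but not in line WT (-0.27, then 0.15, -0.01 and 0.125). PRE1 stood at 0.24, 0.61, 0.74 and 0.99 in line H, against 0.80, 0.73, 0.66 and 0.74 in vec, so its rise in line H started from a lower level. Over the subunit genes the median difference in change was 0.30, with 31 of 32 above 0. For all genes it was 0.05, with 3306 of 6165 above 0. Without 90 min, or without 150 min, none of the 4 was called.

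No member was called for the change from 0 min in line WT minus vec (limma). Of all genes 5.76% were higher and 2.61% lower. The unadjusted p was under 0.05 for 2 members and for 1603 of all 6165 genes. In line 170 minus vec no member was called either, where 13.6% of all genes were higher and 7.58% lower. The medians of the subunit genes were 0.07 and -0.03. In line H minus WT no gene of the 6165 passed in either direction (limma, 0% and 0%). There 30 of 32 subunit genes lay above 0, with a median of 0.19 against 0.02 for all genes.

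**Figure D5:**
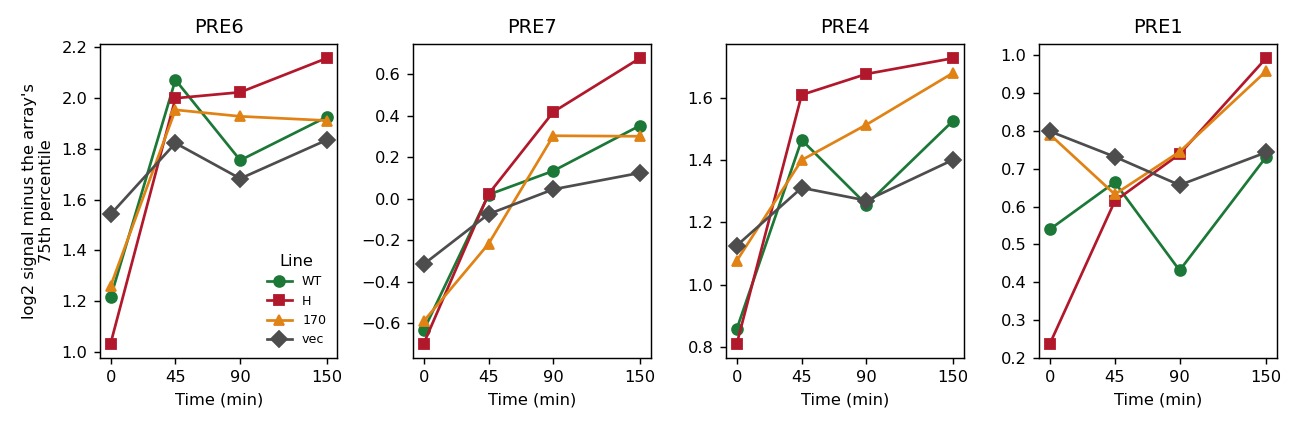
Level of the core genes PRE6, PRE7, PRE4 and PRE1 as log2 signal minus the array's 75th percentile against minutes after methionine removal in the 4 lines, with 1 array per point and a vertical scale of its own in each panel. Line H starts lowest of the 4 lines in each panel and is highest at 150 min.

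Genes that work with the proteasome moved in both directions, as genes did in general, with 34.8% of all genes higher and 44.2% lower over the mean of the later times at a median of -0.11. Of 15 assembly factors and associated proteins 4 rose and 7 fell, with a median of -0.10. BLM10, an activator that caps the core, rose by 1.16 ± 0.13, the assembly chaperone gene POC4 by 0.73 ± 0.076, SEM1, which also encodes a lid subunit, by 0.52 ± 0.068 and ECM29, whose product holds core and regulator together, by 0.45 ± 0.12 (limma, adjusted p of at most 0.0034). The base assembly chaperone genes ADC17 (-1.90 ± 0.13), NAS2 (-1.61 ± 0.13), HSM3 (-0.45 ± 0.11) and RPN14 (-0.30 ± 0.078) fell, as did HUL5 (-1.47 ± 0.079), a ubiquitin ligase bound to the proteasome, and the core assembly genes ADD66 (-1.20 ± 0.072) and IRC25 (-0.19 ± 0.078). NAS6, another base assembly chaperone gene, did not pass (0.08 ± 0.092, adjusted p = 0.43). ADC17 stood at 2.59, 0.88, 0.40 and 0.58 in line WT, at 2.68, 0.88, 0.96 and 1.67 in line H, at 2.96, 0.70, 0.83 and 1.05 in line 170 and at 2.62, 0.76, 0.48 and 0.61 in vec. Levels at 0 min and later did not overlap for it. In line H minus vec after removal 5 of the 15 were higher and 3 lower, where 25.2% of all genes were higher and 24.6% lower. Among them HUL5 (0.60 ± 0.084), ADC17 (0.56 ± 0.19) and HSM3 (0.54 ± 0.096) were higher and NAS2 (-0.64 ± 0.12), POC4 (-0.53 ± 0.098) and IRC25 (-0.51 ± 0.11) lower. At 0 min HUL5 already stood at 0.13 in line H against -0.76 in vec, POC4 at -1.84 against -1.34 and IRC25 at -1.29 against -0.80. HSM3 (-1.47 against -1.28) and NAS2 (-0.60 against -0.79) then lay the other way, and ADC17 stood at 2.68 against 2.62.

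Of 22 genes of ubiquitin and of substrate delivery 10 rose and 8 fell with time, with a median of -0.03, where 34.8% of all genes were higher and 44.2% lower. The ubiquitin genes divided by type. RPL40A (1.67 ± 0.078), RPL40B (1.71 ± 0.070) and RPS31 (1.37 ± 0.068), which encode ubiquitin fused to ribosomal proteins, rose, and UBI4 (-1.26 ± 0.092), the polyubiquitin gene used under stress, fell (limma, adjusted p of at most 9.6e-08). The shuttle genes RAD23 (1.02 ± 0.074) and DSK2 (0.76 ± 0.092) and UBA1 (0.70 ± 0.092), of the ubiquitin-activating enzyme, rose. DDI1 (-0.27 ± 0.087, adjusted p = 0.013), another shuttle gene, fell. DOA4 (-0.76 ± 0.069), a deubiquitinase gene, fell. UBI4 stood at 2.92, 2.13, 1.33 and 1.41 in line WT, at 3.07, 2.5, 2.05 and 1.98 in line H, at 2.98, 1.99, 1.5 and 1.31 in line 170 and at 2.01, 0.81, 0.35 and 0.50 in vec. It was lowest in vec at each time. After removal UBI4 exceeded its vec level by 1.07 ± 0.10 in line WT, 1.62 ± 0.10 in line H and 1.05 ± 0.10 in line 170 (adjusted p of at most 4.5e-04). UBC5, a ubiquitin-conjugating enzyme gene of the stress response, was higher than in vec by 0.61 ± 0.13, 1.27 ± 0.13 and 1.22 ± 0.13 in lines WT, H and 170, and UFD1, a cofactor gene of the Cdc48 segregase, by 0.51 ± 0.090, 0.67 ± 0.090 and 0.41 ± 0.090. At 0 min UBC5 already stood at -1.30, -1.08 and -0.81 in lines WT, H and 170 against -1.85 in vec. UFD1 then stood at -0.70, -0.71 and -0.41 in these lines against -1.06 in vec. After removal H minus WT was 0.55 ± 0.10 for UBI4 (adjusted p = 0.021) and 0.66 ± 0.13 for UBC5 (adjusted p = 0.025).

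Of 6 genes whose products regulate RPN4 or Rpn4, 5 fell with time and 1 rose, where 44.2% of all genes were lower and 34.8% higher. HSF1 (-1.33 ± 0.13), PDR3 (-0.93 ± 0.074), YAP1 (-0.50 ± 0.074) and PDR1 (-0.32 ± 0.075), transcription factors that act on the RPN4 promoter, fell. MUB1 (-0.28 ± 0.094) fell as well and UBR2 (0.32 ± 0.091) rose; their products form the ligase that ubiquitylates Rpn4 (limma, adjusted p of at most 0.016). At 0 min HSF1 was higher than in vec by 0.94 ± 0.14, 1.02 ± 0.14 and 1.17 ± 0.14 in lines WT, H and 170, and 4, 5 and 5 of the 6 genes were called higher there, where 11.4%, 14.5% and 12.2% of all genes were. After removal MUB1 alone of the 6 was higher than in vec in line WT (0.40 ± 0.085) and in line H (0.46 ± 0.085), and none was called in line 170. Of 17 cytosolic chaperone genes 7 rose and 4 fell with time, with a median of 0.22, against the same 34.8% and 44.2% of all genes. Of 136 genes of cytosolic ribosomal proteins 135 rose and 1 fell, with a median of 2.11. In line H minus vec after removal 118 of them were lower, with a median of -0.43, where 24.6% of all genes were lower. At 0 min their median relative to vec was already -0.97, -1.08 and -0.91 in lines WT, H and 170. Their change from 0 min in line H minus that in vec had a median of 0.71.

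Across the 16 arrays 25 of 32 subunit genes had a Pearson correlation over 0.5 with the median of the other subunits, as a description of points that share lines, times and slides. The share of all genes with such a correlation was not computed, so the count has no background to be read against. The highest were PRE4 (0.96), PRE5 (0.95) and PRE7 (0.93). 3 subunit genes fell below 0: PRE3 (-0.16), RPN5 (-0.20) and RPN13 (-0.39). RPN4 itself stood at -0.41. Outside the lists, the genes whose levels over the 16 arrays were most like the subunit median were CBC2, GLR1 and LSM2 (r = 0.93 each), YOS1 (0.92), EMP47, PTM1, STV1 and APM3 (0.91 each) and OCA2 and GAS5 (0.90 each).

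Markers of cell type moved between the lines as well. All 7 a-cell markers, which cells of mating type a express, lay well above background on all 16 arrays. Their summed level over the 4 times ran from 2.61 to 3.60 in line WT, from 2.09 to 2.78 in line H and from 2.09 to 2.32 in line 170, against 3.41 to 5.15 in vec, and after removal 6, 7 and 7 of the 7 were lower than in vec in lines WT, H and 170, where 12.8%, 24.6% and 16.4% of all genes were. The summed level of the 5 alpha-cell markers at the later times ran from -1.99 to -1.78 in line WT, from -1.43 to -0.15 in line H and from -1.98 to -0.74 in line 170, against -1.93 to -1.85 in vec. After removal the alpha marker AFB1 exceeded its vec level in line H (a difference of 2.94 ± 0.41, limma, adjusted p = 4.9e-04) and in line 170 (1.84 ± 0.41, adjusted p = 0.0089), with 0.47 ± 0.41 in line WT (adjusted p = 0.41). AFB1 was the only one of the 5 alpha markers called higher in these comparisons. In line H 1 was called lower than in vec and the median of the 5 was 0.004. In line 170 2 were called lower and the median was -0.53. Of all genes 24.6% and 16.4% were lower there. The 7 meiosis markers summed to between -1.72 and -0.67 over all arrays. The alpha marker MF(ALPHA)2 was well above background on 13 arrays and the meiosis marker SPS2 on 8. The part of these differences in the results above was not tested.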

How the data were processed

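Total RNA was labelled with Cy3, per the labels' protocols, and read with Agilent Feature Extraction 10.7.1.1, per the file headers. The deposited intensity of a spot is after background subtraction and removal of trends across the array, and it is not scaled between arrays. The authors' deposited value table holds log2 values centred per probe within each slide, and served as an alternative within slides.

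Here the log2 of the processed intensity was averaged over the 2 spots of a probe, and the array's 75th percentile was subtracted. Probes flagged well above background on 3 or more of the 16 arrays were kept, and the brightest probe stood for each of 28 genes with several. Names matched RefSeq locus tags for 5738 genes. Since the array and the RefSeq table are of different assemblies, no positions are given.

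Tests were two-sided limma 3.58.1 fits in R 4.3.3 over 6165 genes, with Benjamini-Hochberg adjustment. Changes with time used 16 arrays with a term for line. Line differences after removal used the 12 later arrays with a term for time. Differences at 0 min, and in the change from 0 min, used 16 arrays with terms for line, time and line by later time; the 0 min arrays leave no residual in that fit. The fits were tested on simulated arrays. Alternatives changed background correction, scaling, filter, probes per gene, variance model, and the lines, times, slides or values in the fit. The members and gene lists were chosen with earlier results of these data known, and 170 minus WT and H minus 170 for the change from 0 min were added after the values were seen; no member was called in either. Values were given on every array for RPN4, for the member of each particle part that changed most and least, and for members farthest from the subunit median in a line difference, and other genes were named from their lists by size of change. RPN13, RPT2, ADC17, UBI4 and the genes of the change from 0 min were shown array by array, and assembly genes beyond the 6 of the naming rule, DDI1 and AFB1 were named, after their values were seen. A planned search of promoters for the Rpn4 motif was not run, as no promoter sequence was used here.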

Additional observations from a re-analysis of the deposited data

Results flagged for a closer look

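The change from 0 min to the mean of the later times was greater in line H than in vec for 4 members, all genes of the core particle, in the fit of that difference (limma, adjusted over all genes). They are 12.1% of the 33 members, where 12% of all genes were called. The differences were 0.79 for PRE6, 0.72 for PRE7, 0.66 for PRE4 and 0.63 for PRE1. In line H the 4 genes changed by 1.03, 1.07, 0.86 and 0.54, against 0.24, 0.35, 0.20 and -0.09 in vec. In line WT they changed by 0.70, 0.80, 0.56 and 0.07, and in line 170 by 0.67, 0.72, 0.45 and -0.01. Both 0 min levels are of single arrays, so the p-values hold no spread of the 0 min level. Without the arrays at 90 min, or without those at 150 min, 0 of the 4 were called. The lines lie on different slides. A constant slide effect on a probe cancels in this difference of changes. A slide effect that varies with time or position cannot be told apart from line.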

How the results depend on the processing

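Counts are of the 33 members. The share of all genes called also changed between alternatives, so a count alone does not show a change particular to the members. In the 13 alternatives for the average change after removal, PRE8, PRE9, PRE6, PUP2, PUP1, PRE7, RPN1, RPN7, RPN13 and RPN4 stayed past the threshold with the same sign. At single times PRE9, RPN1 and RPN4 did so in 13 of 13 alternatives at each time, and each of the others lost its call in 1 alternative at 1 or more times. Over all alternatives 1358 of the values of called or fully shown genes kept direction and side of the threshold, 210 no longer passed and 7 turned in sign. Quantile normalization turned RPN2 (-0.10) in the later mean, PRE5 (-0.027) at 45 min, and RPT1 (-0.021) and RPN2 (-0.11) at 90 min, all slight. RPN4 between 90 and 150 min, which did not pass, was 0.012 on the slide of WT and H and ran from -0.054 to 0.0056 when a line was left out. RPN4 in H minus WT ran from -0.0006 to 0.21 when a time was left out. The causes of these changes were not tested.

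Quantile normalization gave 12 higher and 9 lower in the later mean, 11 lower at 45 min, 9 lower at 90 min, 4 lower at 150 min and 1 higher between 45 and 90 min. It gave 1 higher in WT minus vec and 0 in 170 minus WT after removal, 2, 3 and 6 higher at 0 min in WT, H and 170 minus vec, and 2 lower in the change from 0 min of 170 minus vec. On the slide of 170 and vec alone 8 were higher in the later mean, 3 higher and 1 lower at 45 min, 4 higher and 1 lower at 90 min, and 5 higher and 1 lower at 150 min, with fewer arrays in the fit. Of all genes 23.8% were higher in that later mean. At 45, 90 and 150 min 20.3%, 20.3% and 17.9% of all genes were higher and 26.4%, 23.6% and 22.9% lower. Median scaling gave 2 lower between 45 and 90 min, 1 higher in WT minus vec and 2 higher in 170 minus WT. Normexp gave 1 higher in WT minus vec, 4 in 170 minus vec and 2 in 170 minus WT. With the lines compared fitted alone, WT minus vec gave 1 higher and 0 lower, H minus vec 4 higher, 170 minus WT 0 higher and H minus 170 1 higher. The deposited value table gave 2 higher in 170 minus vec, and the filter on all arrays and the trended variance gave 2 higher each in 170 minus WT.

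Leaving out 1 line gave 2 to 4 lower at 90 min and 0 to 1 higher between 45 and 90 min. Leaving out 1 of the later times gave 1 higher each time and 0 to 1 lower in WT minus vec, 1 to 16 higher in H minus vec, 0 to 1 higher in 170 minus vec, 0 to 2 higher in H minus WT, 0 to 2 higher in 170 minus WT and 0 to 1 higher in H minus 170. At 0 min it gave 0 to 1 lower in WT minus vec, 0 to 5 lower in H minus vec and 0 to 3 higher in 170 minus vec, and for the change from 0 min 0 to 6 higher in H minus vec. The other counts stayed within 1.5 times the reported ones. The terms for line and time already match arrays of a line or of a time. No paired analysis was possible beyond them because the labels give no replicate numbers. The planned search for the Rpn4 motif was not run.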
